A study of Mus musculus with 2040 samples.

Results

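The report describes 9 genes of myelin, Mbp, Mog, Mag, Mobp, Cnp, Mal, Cldn11, Opalin and Ermn, which were taken by name from the 32245 gene columns of a table of single-cell RNA levels. The study sorted single cells that made the fluorescent protein SYFP2 from the brains of 47 C57Bl/6J mice. Each mouse had been given 1 of 30 vectors, adeno-associated viruses in which a named enhancer or promoter drives the reporter. VISp, the visual cortex, was dissected in 41 mice given 27 vectors (1785 cells). MB/HB, midbrain and hindbrain, was dissected in 4 mice given eHGT_381h or MGT_E160m (174 cells), and CBX, the cerebellar cortex, in 2 mice given eHGT_375m (81 cells). All mice carried a vector, the labels used here give no age, and each vector went into a single tissue, so tissue and vector cannot be told apart. Cells of 1 mouse share their source, and the mouse was the replicate throughout.

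Each library was 1 cell, sorted into its own tube, with a median of 434101.5 reads and 4435.5 genes with a read. Cell classes were rebuilt from marker genes with the 9 myelin genes left out of both the markers and the clustering. They gave 935 oligodendrocyte-like cells (929 from VISp and 6 from MB/HB), 969 astrocyte-like cells, 98 neuron-like cells and 38 cells left without a name. All 12 oligodendrocyte markers had a median above 0 over the 929 VISp cells. The class was named from these same markers, so this is no test of the name. In 75 oligodendrocyte-like and 47 astrocyte-like cells more than 50% of the markers of another class were detected.

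Myelin is the membrane that oligodendrocytes wrap around axons. In its compact part, Mbp and Mobp are small proteins that hold the inner faces of the membrane together. Mal is a membrane protein of lipid-rich domains, and Cldn11 forms the tight junctions between the layers. Mog lies on the outer surface of the sheath, and Mag, a receptor for sialic acid, on the side that faces the axon. Cnp is an enzyme of the parts that stay uncompacted and of the cell's processes. Opalin is a membrane glycoprotein and Ermn an actin-binding protein of mature oligodendrocytes. Their genes are switched on late in the lineage under the transcription factors SOX10 and MYRF.

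The stretches upstream of 5 of these genes are shown because these are the members whose level differed in a comparison below, Opalin, Mal, Mobp and Ermn between states of oligodendrocytes and Cnp between astrocyte-like cells of different tissues. Each is the 250 bases before the annotated start of the gene, 5′ to 3′ on the strand of the gene, from RefSeq on GRCm38.p6, in which 8 of the 9 genes were matched. Capitals mark CTGGCAC or CTGGTAC, the core of the MYRF motif, and ACAAAG or ACAATG, cores read by SOX factors, on either strand. No matches overlapped.
Opalin, chr19:41077114-41077363, minus strand: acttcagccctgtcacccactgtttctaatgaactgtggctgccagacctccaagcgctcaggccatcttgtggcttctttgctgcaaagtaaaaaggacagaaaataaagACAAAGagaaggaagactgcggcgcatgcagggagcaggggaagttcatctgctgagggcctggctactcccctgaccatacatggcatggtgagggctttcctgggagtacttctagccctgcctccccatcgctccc
Mal, chr2:127656696-127656945, minus strand: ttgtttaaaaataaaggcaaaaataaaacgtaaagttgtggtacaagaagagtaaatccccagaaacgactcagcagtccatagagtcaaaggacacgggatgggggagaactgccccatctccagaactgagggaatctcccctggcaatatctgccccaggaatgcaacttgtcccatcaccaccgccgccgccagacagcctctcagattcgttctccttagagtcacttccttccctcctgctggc
Mobp, chr9:120149492-120149741, plus strand: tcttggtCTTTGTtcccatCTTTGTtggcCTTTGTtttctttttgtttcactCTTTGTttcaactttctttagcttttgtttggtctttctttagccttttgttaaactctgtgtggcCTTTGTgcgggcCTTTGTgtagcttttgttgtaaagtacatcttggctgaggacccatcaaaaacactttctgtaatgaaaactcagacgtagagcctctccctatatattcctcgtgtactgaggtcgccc
Ermn, chr2:58052865-58053114, minus strand: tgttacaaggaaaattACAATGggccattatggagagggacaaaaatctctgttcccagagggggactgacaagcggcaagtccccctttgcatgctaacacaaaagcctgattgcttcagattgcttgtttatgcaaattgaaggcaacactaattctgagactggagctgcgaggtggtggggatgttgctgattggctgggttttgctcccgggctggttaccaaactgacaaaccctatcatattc
Cnp, chr11:100574689-100574938, plus strand: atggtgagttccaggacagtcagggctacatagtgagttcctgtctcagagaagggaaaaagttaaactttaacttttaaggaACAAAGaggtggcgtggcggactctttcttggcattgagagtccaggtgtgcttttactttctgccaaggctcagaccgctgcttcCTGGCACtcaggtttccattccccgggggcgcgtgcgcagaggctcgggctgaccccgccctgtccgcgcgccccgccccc
The Opalin stretch held 1 match, ACAAAG at position -139 from the start, and the Mal stretch held none. Mobp held 6 matches, all of them ACAAAG on the other strand. The Ermn stretch held ACAATG at position -234. Cnp held ACAAAG at position -167 and CTGGCAC at position -81. Over the 32851 stretches of the same length in the same table, 4.19% held CTGGCAC, 1.83% CTGGTAC, 16.5% ACAAAG and 10.7% ACAATG. Of the 8 matched members 2, 1, 4 and 1 held them. These counts are per gene and the percentages per stretch. Mag had several annotated starts, and was counted as holding a motif found in any of its stretches. A match is a description of the letters, not a bound site.

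In VISp oligodendrocyte-like cells the 9 genes together took 4.39% ± 0.27 of the reads of a cell (SD, n = 22 mice with at least 10 such cells, 15 vectors, 922 cells). The lowest mouse, eHGT_410m MouseID-619578, stood at 3.67%, the median mouse at 4.41% and the highest, eHGT_400m MouseID-601541, at 4.75%. Single cells ranged from 2.20% to 7.20%. A read of every member was found in all 929 cells except for Opalin, which was read in 907 (97.6%, exact 95% interval 96.4% to 98.5%).

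Among the compact myelin genes, Mbp took the most reads, 12848 ± 1537 CPM, the reads of a gene per 1000000 reads of the cell (SD, n = 22 mice), with a lowest mouse of 9729.5, a median of 13021 and a highest of 16086. Mal stood at 5348 ± 960 CPM (SD, n = 22), from 4025 to 8811 with a median of 5198. Mobp stood at 5061 ± 744 CPM (SD, n = 22), from 3794 to 6605 with a median of 4987. Cldn11 took the fewest reads, at 375 ± 193 CPM (SD, n = 22), from 166 to 876 with a median of 297. Mbp alone made up 1.28% of all reads and Cldn11 0.0375%.

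Of the genes outside compact myelin, Cnp had 9239 ± 1062 CPM (SD, n = 22), from 5675 to 10521 with a median of 9498. Mag had 3597 ± 1001 CPM (SD, n = 22), from 2035 to 5779.98 with a median of 3541. Mog had 2779 ± 409 CPM (SD, n = 22), from 1969 to 3886 with a median of 2796. These 3 genes, with Mbp, Mal, Mobp, Cldn11 and Ermn, were read in every cell. Ermn had 2502 ± 243 CPM (SD, n = 22), from 2149.6 to 2980.2 with a median of 2445. Opalin had 2174 ± 613 CPM (SD, n = 22), from 882 to 3168 with a median of 2131.

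The genes differed more in their spread than in whether they were read. The SD over mice was 0.51 of the mean for Cldn11, whose highest mouse was 5.26 times its lowest, and 0.28 for both Opalin (3.59 times) and Mag (2.84 times). It was 0.097 for Ermn (1.39 times). Within a mouse the SD over cells had a median of 0.60 of the mean for Cldn11, 0.46 for Opalin and 0.36 for Mag, against 0.24 for Mbp and 0.22 for Cnp. Ermn, the narrowest between mice, stood at 0.31. One mouse held several of the extremes. In eHGT_641m MouseID-617305, Mbp and Mag were at their highest, and Cldn11, Opalin and Mobp at their lowest. In eHGT_410m MouseID-619578, Mbp and Cnp were at their lowest, and Cldn11 stood at 785 CPM, above all but 1 mouse.

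**Figure D1:**
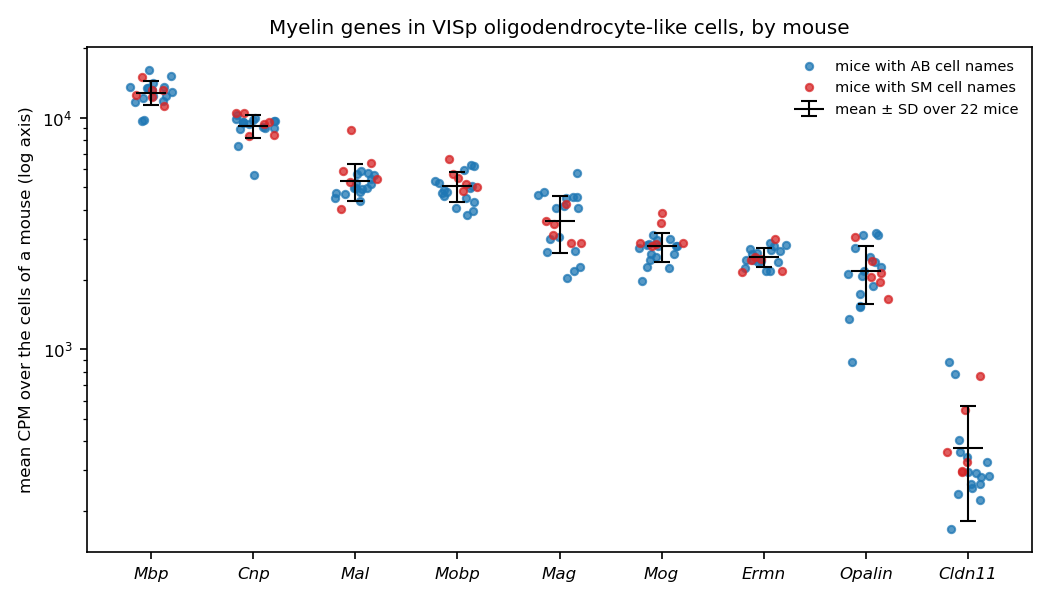
Each point is the mean CPM of 1 gene over the VISp oligodendrocyte-like cells of 1 mouse (log axis), coloured by the first letters of its cell names, and bars are the mean ± SD over 22 mice. Mbp lies highest, Cldn11 lowest and widest, from 166 to 876 CPM, and Ermn is the narrowest.

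Genes can be ranked against each other only per length of transcript. Per kilobase of its longest protein-coding transcript, Cnp had 3919.7 ± 450.4 CPM (SD, n = 22), Mbp 2678 ± 320.5, Mal 1925 ± 346, Mog 1631 ± 239.8 and Mobp 1540.3 ± 226. Mag had 1478 ± 411 CPM per kilobase, Opalin 1182 ± 333, Ermn 688 ± 66.8 and Cldn11 200.3 ± 103 (SD, n = 22). The neighbours Mog, Mobp and Mag differed by less than their SD. The length is uncertain for genes with several annotated protein-coding transcripts. Over the median length of its 14 transcripts Mbp stood at 6642 CPM per kilobase, and over that of its 5 transcripts Mobp stood at 10163.5, both then above Cnp, which has 1, so the order of these 3 genes turns with the length used. Cldn11 was lowest by either length.

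The first comparison asked whether the vector that labelled the cells went with the level of the genes. It used the 12 mice of the 5 VISp vectors with at least 2 mice (496 cells). The share of reads in the 9 genes was 4.42% ± 0.015 for MBP_promoter (SD, n = 2), 4.27% ± 0.11 for eHGT_395h (SD, n = 3), 4.11% ± 0.24 for eHGT_409h (SD, n = 2), 4.20% ± 0.47 for eHGT_410m (SD, n = 3) and 4.52% ± 0.19 for eHGT_641m (SD, n = 2). These vectors spanned 4.11% to 4.52%. That range was narrower than the SD between the mice of eHGT_410m and wider than the SD within each of the other vectors. Over all 22 mice, the 16 whose cell names in the labels begin with AB had 4.34% ± 0.27 (SD) and the 6 whose cell names begin with SM had 4.54% ± 0.22 (SD).

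None of the 9 genes passed the test of differences among the 5 vectors. limma, a linear model fitted across all genes with Benjamini-Hochberg adjustment at 0.05, was run on the log2 of mean CPM per mouse. Its F-test over vectors called 0 of the 9 members, and 0.0339% of the 2951 genes tested (1 gene, Ldb3, named after its value was seen). At an unadjusted p under 0.05 the counts were 0 of 9 members and 6.40% of all genes. The members nearest to the threshold were Cldn11 (F 2.08, limma p 0.132) and Opalin (F 2.05, limma p 0.137), both with a limma adjusted p of 0.819. Single mice moved these values: without 1 mouse Opalin's F lay between 1.11 (without MouseID-651227) and 6.66 (without MouseID-601543, limma adjusted p 0.438), and was 3.25 without MouseID-619577. Cldn11's F lay between 1.49 (without MouseID-617305) and 4.69 (without MouseID-619577, limma adjusted p 0.441). In each of these fits 0 members were called. The 3 lists of related myelin genes, 10 regulators, 13 lipid genes and 32 other membrane and process genes (31 tested), had 0 genes called.

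The vector MBP_promoter, which carries a promoter named after one of the members, was set against the other 4 vectors. Here limma called 1.32% of the 2951 genes, 0.237% higher and 1.08% lower with MBP_promoter, and 0 of the 9 members. Mbp itself stood at 13145 and 12902 CPM in the 2 MBP_promoter mice, within the 9729.5 to 16086 CPM of the other 10 mice, and its log2 difference was 0.07 (SE 0.18, limma adjusted p 0.883). Opalin stood at 2746 and 3123 CPM against 882 to 3121 CPM, a log2 fold difference of 0.70 (SE 0.29, limma p 0.0303, adjusted p 0.322). At an unadjusted limma p under 0.05 the counts were 1 of 9 members, Opalin, and 12.5% of all genes. Mal stood at 5773 and 5901 CPM against 4025 to 5735.5, with a log2 fold difference of 0.22 (SE 0.16, limma adjusted p 0.634). In the VISp vectors with 1 mouse, outside this fit, Mal lay between 4355 CPM (eHGT_361h) and 8811 CPM (eHGT_396m). Among the AB mice alone the differences were 0.15 for Mbp, 0.58 for Opalin and 0.20 for Mal, and 0 members were called. With 2 mice for MBP_promoter, smaller differences may not have been detectable.

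Around the members, 0 of the 10 regulators, 0 of the 13 lipid genes and 1 of the 31 other membrane genes tested were called, with list medians of 0.02, -0.42 and -0.16 log2 beside -0.15 over all genes. The gene was Gsn, an actin-severing protein, at 745 and 872 CPM with MBP_promoter and 931 to 2298.5 CPM with the other vectors (log2 difference -0.96, SE 0.20, limma adjusted p 0.0326). This call was lost among the AB mice alone (limma adjusted p 0.137), with log2 values averaged over cells (0.534), with no filter on low values (0.118) and without either MBP_promoter mouse (0.119 without MouseID-638254 and 0.171 without MouseID-651227). It was also lost without 5 of the other mice, MouseID-562430, MouseID-617305, MouseID-617307, MouseID-619577 or MouseID-641432, with limma adjusted p from 0.0553 to 0.0632.

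Within mice, the genes differed with the state of the oligodendrocyte that Klk6, a secreted protease gene, marks. Klk6 split the cells sharply: of the 929 VISp cells, 828 had no read of it, 3 lay under 5 CPM, 0 lay between 5 and 20 CPM and 98 lay at 20 CPM or more. Cells at 10 CPM or more are called Klk6-high here and the others Klk6-low. In 9 mice with at least 5 cells on each side (70 Klk6-high and 343 Klk6-low cells), Opalin and Mal fell in Klk6-high cells, and Mobp and Ermn rose. The summed share of the 9 genes was 4.22% ± 0.38 of reads in Klk6-high and 4.30% ± 0.23 in Klk6-low cells (SD, n = 9), and was higher in the Klk6-high cells of 3 of 9 mice.

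Opalin stood at 2281 ± 611 CPM in Klk6-low cells (SD, n = 9), with a lowest mouse of 1646, a median of 2201 and a highest of 3655. In Klk6-high cells of the same mice it stood at 691 ± 438 CPM (SD, n = 9), from 168 to 1501 with a median of 554. The Klk6-high value was the lower one in 9 of 9 mice, and the values of the sides did not overlap. The log2 difference was -1.97 (SE 0.28, limma with the mouse as a block, adjusted p 0.00036). Over single cells the contrast was one of absence as well as of level: Opalin had no read in 22 of the 98 Klk6-high cells and in 0 of the 831 Klk6-low cells. In all, 49 Klk6-high and 21 Klk6-low cells lay under 500 CPM.

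Mal stood at 5185 ± 655 CPM in Klk6-low cells (SD, n = 9), from 4347 to 6143 with a median of 5039. In Klk6-high cells it stood at 3850.2 ± 664 CPM (SD, n = 9), from 2668 to 4689 with a median of 3673. It was lower in 9 of 9 mice though the ranges overlapped, with a log2 fold difference of -0.44 (SE 0.07, limma adjusted p 0.000551).

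Mobp and Ermn went the other way by smaller steps. Mobp stood at 4784 ± 644 CPM in Klk6-low cells (SD, n = 9), from 4021 to 6159.8 with a median of 4565. In Klk6-high cells it stood at 5831 ± 807 CPM (SD, n = 9), from 4483 to 6772 with a median of 6106. It was higher in 9 of 9 mice, with a log2 fold difference of 0.28 (SE 0.05, limma adjusted p 0.00203). Ermn stood at 2542 ± 175 CPM in Klk6-low cells (SD, n = 9), from 2264 to 2841 with a median of 2553. In Klk6-high cells it stood at 3025 ± 395 CPM (SD, n = 9), from 2369.8 to 3569 with a median of 2941, and was higher in 8 of 9 mice. Its log2 difference was 0.24 (SE 0.06, limma adjusted p 0.0188).

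The other 5 members did not pass the test. Mag stood at 3944 ± 1151 CPM in Klk6-high and 3401 ± 1053 CPM in Klk6-low cells (SD, n = 9), higher in 8 of 9 mice, with a log2 fold difference of 0.22 (SE 0.07, limma adjusted p 0.0725). It was called with log2 values averaged over cells (0.29, limma adjusted p 0.0421), with a Klk6 threshold of 50 CPM (0.26, limma adjusted p 0.0354) and without MouseID-619577 (limma adjusted p 0.0354). The differences of Mog (0.17, limma adjusted p 0.262), Mbp (0.02, limma adjusted p 0.838), Cnp (-0.08, limma adjusted p 0.376) and Cldn11 (-0.14, limma adjusted p 0.628) were smaller in size. In all, 4 of the 9 members were called, 2 higher and 2 lower, where limma called 3.71% of the 2936 genes tested, 1.7% higher and 2.01% lower.

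Ermn's call was lost among the AB mice alone (7 of the 9 mice, limma adjusted p 0.0759) and without MouseID-562430 (0.0582), MouseID-617307 (0.0608) or MouseID-642124 (0.0578), while the log2 differences among the AB mice were -1.93 for Opalin, -0.41 for Mal and 0.26 for Mobp, all called. Without the mouse as a block, Mobp (limma adjusted p 0.0841) and Ermn (0.0970) were not called, and with at least 10 cells on each side, which leaves few mice, only Opalin was. The scale of the sum over cells matters for direction among all genes: their median was -0.28 on this scale and 0.22 when log2 values were averaged over cells. Relative to that median, Opalin stood at -1.69 and -4.15, Mal at -0.16 and -0.65, Mobp at 0.56 and 0.07 and Ermn at 0.52 and 0.07 on the 2 scales. Beside these results, Klk6-high cells had more genes with a read, a median of 5260 over mice against 4370, in 9 of 9 mice. The median depth over mice was 476254 reads against 471886, the summed oligodendrocyte markers 11357 CPM against 11072, and the summed astrocyte markers 425 CPM against 527. Markers of another class were found in 9.18% of all Klk6-high and 7.70% of all Klk6-low VISp cells. Without those cells the 4 members stayed called, Opalin at -1.90, Mal at -0.42, Mobp at 0.28 and Ermn at 0.25 log2 (limma adjusted p 0.000669, 0.00183, 0.00273 and 0.0183). The part of the number of genes read and of depth was not tested.

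**Figure D2:**
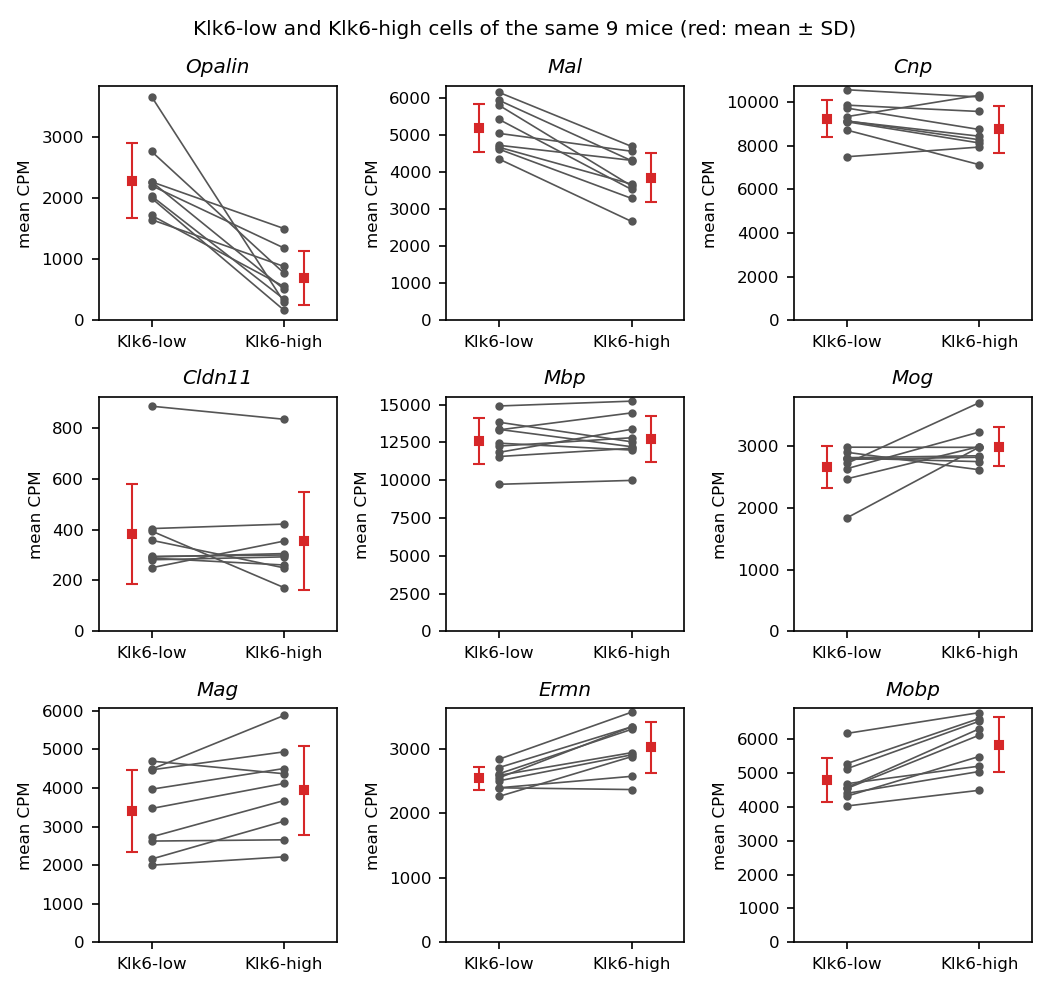
Each panel shows 1 gene, each line 1 of 9 mice from its Klk6-low to its Klk6-high VISp oligodendrocyte-like cells (mean CPM, axes from 0), and red marks the mean ± SD over mice. Every line falls for Opalin and Mal and rises for Mobp, and the lines of Mbp, Mog and Cldn11 go both ways.

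**Figure D3:**
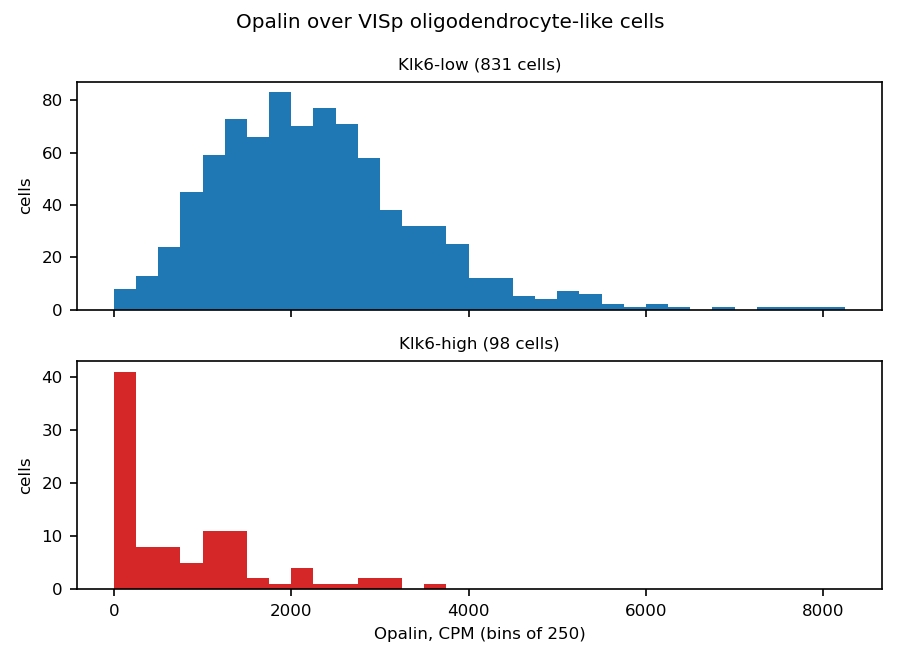
Histograms of Opalin (CPM, bins of equal width) over the 831 Klk6-low and 98 Klk6-high VISp oligodendrocyte-like cells. The Klk6-low cells form 1 hump around a median of 2163 CPM, and the Klk6-high cells pile up at the lowest bin, with a median of 515 CPM.

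The lists of related genes moved unevenly in the same comparison. Of the 10 regulators 0 were higher and 1 lower in Klk6-high cells, of the 13 lipid genes 5 were higher and 0 lower, and of the 31 other membrane and process genes tested 10 were higher and 6 lower. Their median differences were -0.25, 0.47 and 0.07 log2, beside -0.28 over all genes. The regulator was Olig2, a transcription factor of the lineage, which fell from 223 ± 61.6 to 112 ± 58.04 CPM (SD, n = 9; log2 difference -1.09, SE 0.21, limma adjusted p 0.00594). Its call was lost when log2 values were averaged over cells (-0.83, limma adjusted p 0.252).

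Among the lipid genes, Elovl1, which lengthens very long fatty acids, rose from 489 ± 50.4 to 745 ± 90.7 CPM (SD, n = 9; log2 0.60, limma adjusted p 0.000398). Gal3st1, which makes sulfatide, rose from 381 ± 67.7 to 556 ± 80.9 CPM (SD, n = 9; log2 0.55, limma adjusted p 0.00188). Hmgcs1, an enzyme of cholesterol synthesis, rose by 0.85 log2 (limma adjusted p 0.0311), a call lost without any 1 of 6 mice, MouseID-617304, MouseID-617307, MouseID-619577, MouseID-622118, MouseID-641433 or MouseID-642124 (limma adjusted p 0.0551 to 0.0792). Among the membrane genes, Anln rose from 388 ± 94.7 to 1235 ± 405 CPM (SD, n = 9) and Pmp22, a protein of peripheral myelin, from 406 ± 95.3 to 1194 ± 252 CPM (SD, n = 9). The tetraspanin Cd9 fell from 1572 ± 203 to 612 ± 296 CPM (SD, n = 9), by 1.52 on the log2 scale (SE 0.18, limma adjusted p 7.98e-05). Of 3 other genes set beside the members as markers of state, Ptgds changed by -2.17 and Il33 by -1.84 log2, and Enpp6 by 3.01 log2 (limma adjusted p 0.000652, 0.00026 and 9.8e-08).

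Across single cells, most pairs of the 9 genes had weak correlations. Spearman's correlation was computed for the 36 pairs over 922 VISp cells, after the mean of each mouse had been taken off, as a description without a test. The median coefficient was 0.07, from -0.29 to 0.45, and 24 pairs lay above 0. The highest were Mbp with Cnp (0.45), Mag with Cnp (0.41), Mal with Opalin (0.34) and Mbp with Mag (0.30). The lowest were Mag with Cldn11 (-0.29), Mag with Opalin (-0.28), Cnp with Cldn11 (-0.23) and Mbp with Cldn11 (-0.18). All values come from shares of the same reads, which a cell divides among its genes. In single cells coefficients this near 0 are no finding by themselves.

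Pairs at both ends recurred across vectors. Mbp with Cnp, Mag with Cnp, Mal with Opalin and Mog with Mobp were above 0 in 15 of 15 vectors, and Mbp with Mag in 14. Of the low pairs, Mag with Opalin was above 0 in 0 of 15 and Mag with Cldn11 in 1. Cnp with Cldn11 was above 0 in 3 and Mbp with Cldn11 in 4. The median over the 36 pairs ranged from -0.04 to 0.14 over vectors. It was 0.06 when cells were thinned to 100000 reads and 0.07 without cells that carried markers of another class. The correlation with depth was at most 0.05 in size for every member. With the number of genes read in the cell it was 0.39 for Mag, 0.28 for Cnp, 0.23 for Mbp, -0.19 for Mal and -0.36 for Opalin, and its part in the pairs was not tested.

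**Figure D4:**
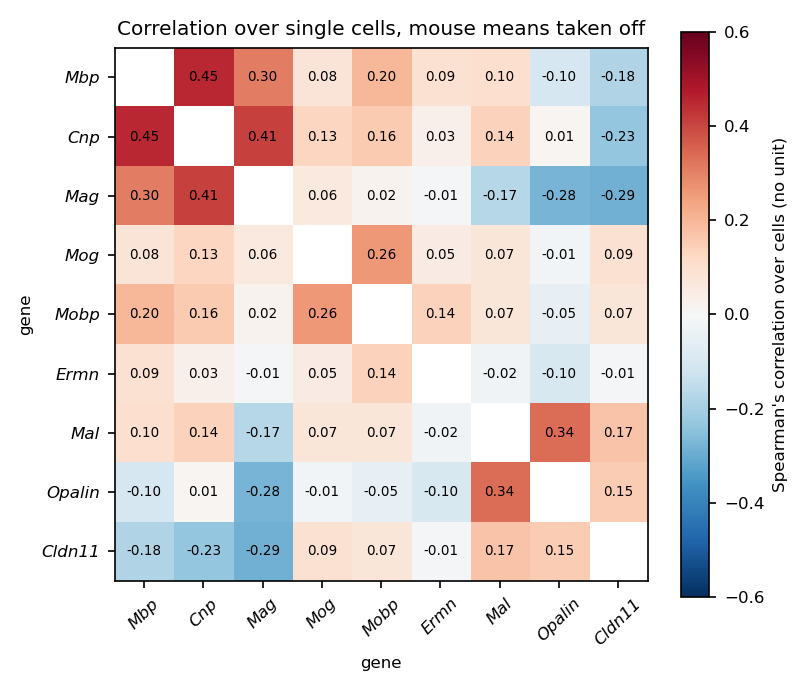
Spearman's correlation of log2(CPM + 1) for each pair of genes over 922 VISp oligodendrocyte-like cells, with mouse means taken off (colour scale from -0.6 to 0.6). Mbp, Cnp and Mag form the warm corner, at 0.30 to 0.45, and Opalin and Cldn11 are cool against Mag, at -0.28 and -0.29.

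Opalin was tied to the genes of state more than to the other members. Its correlation was -0.54 with Klk6, -0.45 with Enpp6, 0.49 with Ptgds and 0.45 with Il33. Its median correlation with the other 8 members was -0.03, against 0.13 for Cnp and 0.11 for Mobp. Of 732 candidate genes outside the 9, those with the highest mean correlation to all members included Gsn (0.11), Lgi3 (0.11), Fa2h (0.11) and Gna12 (0.10), where the median over candidates was 0.01. By single members, the most alike gene was Trf for Mag (0.37) and Gsn for Mobp (0.31). It was Tspan2 for Mal (0.32), Ppia for Cldn11 (0.28), Cd9 for Opalin (0.52) and Ugt8a for Ermn (0.20).

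Astrocytes make no myelin, and reads of the 9 genes in astrocyte-like cells were few and unequal. In VISp (19 mice, 739 cells) the median cell gave 0.0296% of its reads to the 9 genes. Cnp was read in 63.6% of cells (exact 95% interval 60.01% to 67.1%), Mbp in 40.3% (36.8% to 43.96%), Mag in 20.7% and Mobp in 11.9%. Mal was read in 1.89%, Ermn in 1.49%, Mog in 1.35%, Cldn11 in 1.08% and Opalin in 0.541%. With each cell thinned to 100000 reads, the values were 61.9% for Cnp, 33.6% for Mbp, 5.16% for Mag and 11.4% for Mobp (737 cells, 2 shallower cells left out). The same genes were read in 100% of oligodendrocyte-like cells at a like depth (medians of 431572 and 442877 reads).

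Set against the oligodendrocyte-like level, the astrocyte-like cells of VISp had 2.57% of Cnp, 1.65% of Mbp and 0.891% of Mobp. The other members lay between 0.00896% (Cldn11) and 0.0544% (Mal). The 9 genes thus stood at unequal ratios to that level. Cnp was the most even of them: the top 5% of cells held 20.1% of its summed CPM, against 57.1% for Mbp and 76.4% for Mobp.

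Tissues were compared over 25 mice with at least 10 astrocyte-like cells, in 1 limma fit of 3549 genes. Cldn11 was under the filter on low values, so 8 of the 9 members were tested. The tissues fell into different clusters of astrocyte-like cells: 680 of 739 VISp cells lay in clusters 2 and 3, led by S1pr1 and Gja1, 138 of 149 MB/HB cells in cluster 5, led by Atp1b2 and Hsd11b1, and 78 of 81 CBX cells in cluster 9, led by Ctxn3 and Npy. Against VISp, the member called was Cnp in CBX and Mal in MB/HB. In each comparison 12.5% of the members tested were called. This lies near the share of all genes called, 11.4% for CBX and 13.2% for MB/HB.

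Cnp stood at 2018 and 1782 CPM in the 2 CBX mice. In the 19 VISp mice it lay between 164 and 429.9 CPM, with a median of 229.7, and in the 4 MB/HB mice it stood at 370.1, 289, 193 and 277 CPM. The CBX mice lay above every other mouse, and the level was 20.6% of that in oligodendrocyte-like cells. The log2 difference from VISp was 3.02 (SE 0.28, limma adjusted p 9.33e-10, 8.13-fold) and that from MB/HB 2.78 (SE 0.33, limma adjusted p 1.74e-07). Cnp was read in 81 of 81 CBX cells, at a median of 1723 CPM. Its difference from VISp was 2.93 to 3.11 when any 1 mouse was left out and 3.06 among the AB mice alone.

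Cnp was the 1 of 8 members called between CBX and VISp, where limma called 11.4% of genes, 6.28% lower and 5.16% higher in CBX. Mag was read in 64.2% of CBX cells (22.2% after thinning) at 4.63 and 2.28 CPM per mouse, against 0 to 7.95 CPM in VISp (log2 difference 1.09, SE 0.76, limma adjusted p 0.478). Averaging log2 values over cells gave 1.07 for Mag with a limma adjusted p of 0.0011, a scale on which the median of all genes was 0.10. Mbp stood at 113 and 76.3 CPM in CBX, within the 6.18 to 775 CPM of VISp. Cldn11 was read in 0 of 81 CBX cells, which allows a share of up to 3.70%. Summed over the 12 oligodendrocyte markers, the 2 CBX mice had 69.3 and 50.2 CPM, within the 20.7 to 119 CPM of VISp mice and against 10993 CPM in oligodendrocyte-like cells, and 4 of the 12 had no read in CBX, Myrf among them.

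Mal stood at 64.0, 31.2, 20.6 and 15.8 CPM in the 4 MB/HB mice. In VISp it lay between 0 and 14.6 CPM with a median of 0, and CBX mice had 1.36 and 0 CPM. The MB/HB mice lay above all others, with a log2 difference from VISp of 3.85 (SE 0.73, limma adjusted p 0.000279, 14.4-fold). It rested on few cells: Mal was read in 17 of 149 MB/HB cells (11.4%, exact 95% interval 6.79% to 17.6%; 10.1% after thinning). The call was lost when the class was called in each cell from its own markers (2.25, SE 1.21, limma adjusted p 0.263), and held without any 1 mouse, at 3.47 to 4.12, and among the AB mice alone (3.66, limma adjusted p 0.00123).

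Mal was the 1 of 8 members called between MB/HB and VISp, where limma called 13.2% of genes, 6.54% higher and 6.71% lower in MB/HB. The median log2 difference of the 8 members was 1.43, beside -0.01 over all genes. Mbp stood at 181, 638, 217 and 3603 CPM in MB/HB, where 3 of the 4 mice lay within the range of VISp (log2 difference 2.16, limma adjusted p 0.0828), and Mobp at 28.01, 116, 8.69 and 879.7 CPM (1.67, limma adjusted p 0.344). Opalin (1.42, limma adjusted p 0.0782) was called without MouseID-615516, MouseID-616739, MouseID-651226 or MouseID-651228 (limma adjusted p 0.0142 to 0.0426). Ermn (1.44, limma adjusted p 0.131) was called without MouseID-630481, MouseID-651222 or MouseID-651228 (0.035 to 0.0457), and Mbp without MouseID-651225. Mag (1.07, limma adjusted p 0.236), Mog (0.96, limma adjusted p 0.293) and Cnp (0.24, limma adjusted p 0.522) were not called. Beside these values, the 12 oligodendrocyte markers summed to 487 to 793 CPM in MB/HB mice, above every VISp mouse. All 12 had a read in MB/HB, as in VISp, and 1 of the 12 was detected in most MB/HB cells. Sox10 was read in 4.70% of MB/HB and 2.57% of VISp cells, and Myrf in 4.03% and 1.49%. Markers of another class, whichever it was, were found in 9.40% of MB/HB, 3.79% of VISp and 6.17% of CBX astrocyte-like cells (14, 28 and 5 cells). Most of the 12 oligodendrocyte markers were detected in only 2 of the 149 MB/HB, 1 of the 739 VISp and 0 of the 81 CBX cells. Leaving out the cells with markers of another class thus did not test the part of oligodendrocyte RNA. Without the cells with markers of another class, Mal was again the 1 member called, at 3.24 log2 above VISp (limma adjusted p 0.00281). Mbp stood there at 2.14 (limma adjusted p 0.0600) and Mobp at 1.66 (limma adjusted p 0.291). Opalin stood at 1.14, Ermn at 1.29, Mag at 1.10, Mog at 0.88 and Cnp at 0.32 (limma adjusted p 0.153, 0.131, 0.197, 0.320 and 0.321).

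Between CBX and MB/HB, limma called 9.13% of genes, 5.18% lower and 3.94% higher in CBX, and 2 of the 8 members, Cnp (above) and Mal. Mal had a log2 fold difference of -4.27 (SE 1.15, limma adjusted p 0.0131), a call that was lost without either CBX mouse (0.0545 without MouseID-614198 and 0.220 without MouseID-651221). Mobp (-4.19, limma adjusted p 0.115) was called without MB/HB MouseID-651228 (0.0446). Mbp stood at 76.3 to 113 CPM in the 2 CBX mice and 181 to 3603 CPM in the 4 MB/HB mice, and was not called (limma adjusted p 0.259).

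**Figure D5:**
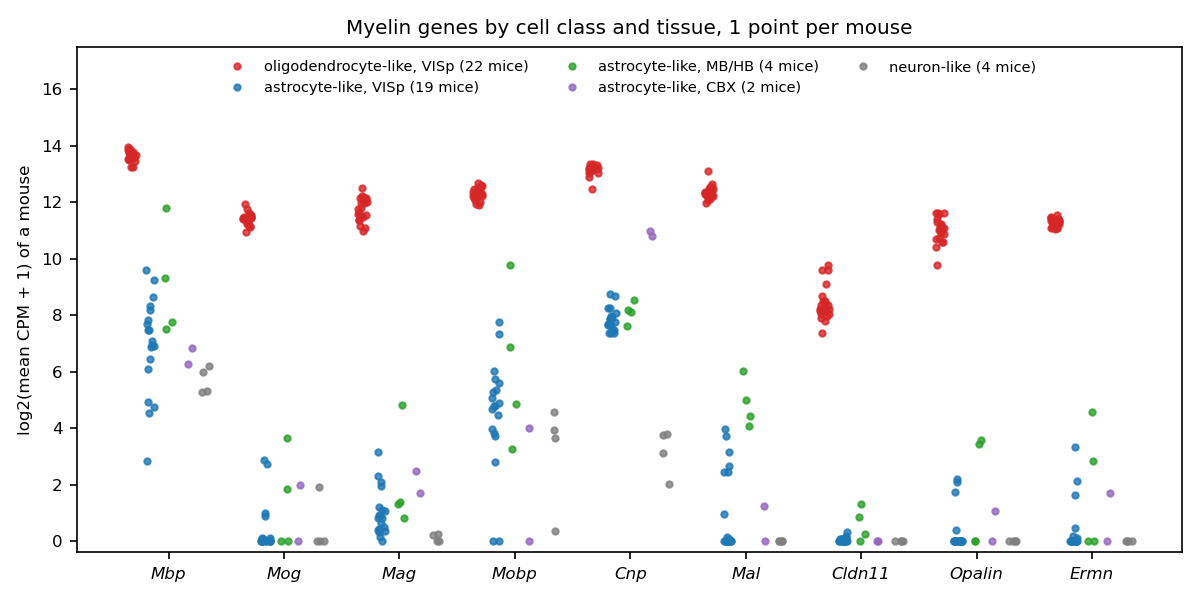
Each point is log2(mean CPM + 1) of 1 gene over the cells of 1 class in 1 mouse with at least 10 such cells, coloured by class and tissue. The 2 CBX mice lie near 11 for Cnp, between oligodendrocyte-like cells and all other astrocyte-like mice, and the 4 MB/HB mice lie above the VISp mice for Mal.

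The related genes also differed between tissues in lists, and here too tissue, cluster and vector cannot be told apart. Between MB/HB and VISp, 3 of the 9 regulators tested were higher and 0 lower, 1 of 13 lipid genes was higher and 3 lower, and 6 of 31 other membrane genes were higher and 5 lower. The median differences were 0.93, -0.23 and 0.40 log2. Nkx6-2, a transcription factor of the lineage that is also among the 12 markers, stood at 63.7 to 120.4 CPM in MB/HB and 0 to 3.99 CPM in VISp. Zfp536 (2.85 log2, limma adjusted p 0.000999) and Olig1 (1.70 log2, limma adjusted p 0.000316) were also higher. Aspa, which splits N-acetylaspartate and is also among the 12 markers, was higher by 3.88 log2 (limma adjusted p 0.00182). The sterol genes Hmgcs1 (-1.64) and Idi1 (-1.49) were lower (limma adjusted p 7.49e-06 and 0.00148). The connexin gene Gjc3 was higher by 5.51 log2 (limma adjusted p 4.86e-09). Gsn was lower (-2.60, limma adjusted p 0.0159), a call lost without either MGT_E160m mouse (0.144 without MouseID-651228 and 0.124 without MouseID-651229).

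Between CBX and VISp, 1 of 9 regulators was higher and 2 lower, 0 of 13 lipid genes were higher and 5 lower, and 10 of 31 other membrane genes were higher and 1 lower, with medians of 0.32, -1.24 and 0.83 log2 beside -0.03 over all genes. Olig2 was listed at 0 in both CBX mice and at 16.7 to 171 CPM in VISp, and Olig1 stood at 0 and 3.502 CPM against 77.7 to 318 CPM. Zfp536 stood at 54.2 and 58.6 CPM against 0 to 8.01 CPM. The cholesterol genes Fdft1 (-2.16) and Hmgcs1 (-1.61) were lower, and the call of Hmgcs1 was lost without MouseID-651221 (limma adjusted p 0.0521). Trf, the iron carrier transferrin, stood at 4181 and 4998 CPM in CBX against 0 to 103 CPM in VISp, Gjc3 at 332 and 378 against 0 to 2.63 CPM, and Sept4 at 6510.4 and 7767 against 80.4 to 551 CPM. Between CBX and MB/HB, regulators had 0 higher and 3 lower, lipid genes 0 and 4, and other membrane genes 8 and 1.

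Neuron-like cells gave a further view of the background, described without a test. With MBP_promoter (48 cells of 2 mice) Mbp was read in 46 cells (95.8%, exact 95% interval 85.7% to 99.5%; 81.2% after thinning), more than the 40.3% of VISp astrocyte-like cells at a like median depth of 436258 reads. Its level was low, 71.9 and 38.7 CPM per mouse, which is 0.414% of the oligodendrocyte-like level, and lay within the range of the VISp astrocyte-like mice. Cnp was read in 22 of the 48 cells, Mobp in 8 and Mag in 2. Mog, Mal, Cldn11, Opalin and Ermn were read in 0 of 48, which allows a share of up to 6.25% each.

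Neuron-like cells of other groups were fewer. In the 15 MB/HB cells, Mbp was read in 11, Mobp and Cnp in 4 each, Mag in 1 and the other 5 members in 0, which allows up to 20%. The 35 neuron-like cells of other VISp vectors came from 15 mice, and 14 of them (40%) carried markers of another class. In those 35, Mbp was read in 27, Mobp in 17 and Cnp in 11, and every member was read in at least 5 cells. In eHGT_374m MouseID-614201, the 1 mouse of these with at least 10 neuron-like cells, Mbp stood at 38.3 CPM, Mobp at 11.7 and Mal, Opalin, Ermn, Mag and Cldn11 at 0.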

How the data were processed

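RNA was measured by SMART-seq (SMARTerv4, polyA RNA) in single sorted cells. The authors aligned with STAR to mm10, per the submitters' processing notes, where no versions are given, and deposited a table of CPM, with 1 line per cell and genes in columns. Every line summed to 1000000, and all 9484843 positive values were whole multiples of 1 read within 0.001 reads, which gave the depth of each cell (57873 to 1455022 reads). Gene columns outside those checked as CPM are the same scale by these sums. Fits used 5000 columns (126 chosen genes and 4874 drawn at random), which carried a median of 26.8% of reads, and 27245 columns were not used here.

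The 9 genes and all lists were chosen with earlier results of these data known. All 9 are named in every comparison, and up to 3 called genes of largest change from each list. Some results are not reported here. The vector, tissue and mouse come from the labels, and nothing further is said of the litters of the mice. Mice of 1 vector are the replicates in the vector fit. In the tissue fit the replicates are the mice of 1 tissue, pooled over vectors without a term for vector. A mouse gave 13 to 63 cells.

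Cells were clustered by the Leiden method (Python 3.11.15 with leidenalg 0.10.2, scikit-learn 1.9.0 and igraph 0.11.9) on 2000 variable genes, 30 components and 15 neighbours at resolution 1, without the 9 genes, and named from marker lists. The class called in each cell matched in 1987 of 2002 named cells. No doublet caller was run; cells with over 50% of another class's markers were left out in an alternative, and 1 cluster with such markers stayed unnamed. No annotation of the cells was used here, so class names are rebuilt.

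CPM was averaged over the cells of a class in a mouse (at least 10 cells, or 5 on each Klk6 side) and tested as log2(mean CPM + 1) with limma 3.58.1 (R 4.3.3, intensity trend, two-sided) in genes with a mean of at least 1 CPM in at least 2 mice. Fold changes on this scale understate those of low genes. The 2 Klk6 sides come from the same mouse, which was a block. The fits were tested on simulated data. Intervals are exact (Clopper-Pearson) at 95%, a count of 0 is given 3 cells of the total as its limit, and both cover counting error only. Alternatives were the pseudocount, filters, the summary over cells, class calls, the prefix of the cell names, thresholds and leaving out each mouse.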

Additional observations from a re-analysis of the deposited data

Results flagged for a closer look

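In each of 19 sets of 4 to 10 mice the gap between an extreme mouse and its nearest neighbour was set against the range. Chance alone gives about 1 wide set in 20, a rate that skewed values need not keep. The gap was wide in 4 sets, each on the scale of CPM or percent of reads. All 4 belong to astrocyte-like cells of MGT_E160m MouseID-651229 among the 4 MB/HB mice, and they are not independent. Mbp stood at 3603 CPM there and at 181 to 638 CPM in the other 3 mice. Mobp stood at 879.7 CPM against 8.69 to 116 CPM. Mag stood at 27.6 CPM against 0.761 to 1.61 CPM. On the log2 scale of the tests Mbp stood at 11.8 against 7.50 to 9.32 and Mobp at 9.78 against 3.28 to 6.87. Mag stood there at 4.84 against 0.816 to 1.38. How wide the gaps are on that scale was not tested. The share of reads in the 9 genes was 0.485% against 0.044% to 0.109%. In this mouse 9 of 35 astrocyte-like cells carried markers of another class, against 1 or 2 cells in each of the other 3. Of all 149 MB/HB astrocyte-like cells, only 2 had most of the 12 oligodendrocyte markers, so most of these 9 carried markers of other classes. The part of these 9 cells in the values was not tested. Mal was not among the wide sets: its 15.8 CPM in this mouse was the lowest of the 4 mice.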

How the results depend on the processing

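Counts of members called, shares, detection and correlations were recomputed under the alternatives: 77 values stayed (counts within 1.5 times, others within their SD or interval) and 9 counts moved, and without 1 mouse 99 counts stayed and 9 moved. Of the 8 members tested between MB/HB and VISp, 1 was called, 2 with a pseudocount of 10 CPM (Mal and Opalin), 2 with no filter (Cldn11 and Mal), 0 with the class called in each cell and 2 without the cluster with endothelial RNA (chosen after seeing the data), and 1 to 3 without 1 mouse. Between CBX and VISp it was 1, 2 with log2 values averaged over cells (Cnp and Mag), and 1 without any 1 mouse. Between CBX and MB/HB it was 2, 1 with a pseudocount of 0.1 CPM, 1 with the class called in each cell, and 1 to 3 without 1 mouse. For the Klk6 states it was 4, 1 with at least 20 cells per mouse (10 per side), which leaves fewer mice, and 3 to 5 without 1 mouse. The fit with no replicate block called 2 (Mal and Opalin); the pairing comes from both sides lying in the same mouse, and the fit with the block is the one reported. For the vectors the count stayed at 0.

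The sign turned only for members that were not called. With MBP_promoter, Mobp (-0.00) became 0.0077 with log2 values averaged over cells, 0.013 with the prefix of the cell names as covariate and 0.00095 with reads summed per mouse (added after seeing the data). It lay between -0.051 and 0.049 without 1 mouse, above 0 without MouseID-556486, MouseID-601543, MouseID-619578, MouseID-638254, MouseID-641432 or MouseID-641433, and Cldn11 between -0.54 and 0.058, above 0 without MouseID-638254. Cnp between MB/HB and VISp became -0.75 with log2 values averaged over cells. Between CBX and VISp, the class called in each cell gave -0.73 for Mog, -0.024 for Mag, -1.05 for Opalin and -0.63 for Ermn. Without MouseID-614198 and without MouseID-651221 the values were -0.42 and 1.59 for Mog, -0.34 and 0.74 for Opalin, -0.41 and 1.30 for Ermn, and -1.03 and 0.20 for Mal, the ends of their ranges. Between CBX and MB/HB, Mag became -0.18 with a pseudocount of 10 CPM, -0.18 with the class called in each cell and -0.24 with reads summed, and lay between -0.41 and 0.93 without 1 mouse, below 0 without MouseID-614198, MouseID-615516, MouseID-651222 or MouseID-651228. Mog lay there between -1.37 and 0.63, above 0 without MouseID-651221 or MouseID-651229. Mbp in the Klk6 states became -0.039 with at least 20 cells and lay between -0.0013 and 0.038 without 1 mouse, below 0 without MouseID-617307. The causes were not tested. Not run were edgeR and DESeq2, since the table was used as CPM, a prefix term for the Klk6 states, constant within a mouse, and at least 20 cells for the vectors, which leaves MBP_promoter with 1 mouse, under the minimum of 2. The fit without MouseID-651227, the mouse this removes from MBP_promoter, called 0 members. Fits that leave 1 mouse in a group assume that it varies like the others. Depth and cells per mouse limit members near 0 in astrocyte-like and neuron-like cells.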

Other observations

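Some cells lay outside every comparison. The 38 cells of the unnamed cluster came from 22 mice, held markers of oligodendrocytes and of astrocytes, and gave 3.46% of their reads to the 9 genes as a median (1.78% to 5.58%). Their median was 10780.0 CPM for Mbp, 7038 CPM for Cnp and 1321 CPM for Opalin, and Opalin was read in 97.4% of them. The 6 oligodendrocyte-like cells of MB/HB, all from 1 mouse, gave a median of 4.04% (3.28% to 4.72%). Their medians were 10988 CPM for Mbp, 8203 CPM for Cnp, 4272 CPM for Mag and 1368 CPM for Opalin, which had no read in 1 of the 6.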
